A study of Mus musculus with 12 samples.

Results

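The 7 genes described here build or stabilise caveolae, the flask-shaped pits of the plasma membrane: Cav1 and Cav2, which encode caveolins; Cavin1, Cavin2 and Cavin3, which encode coat proteins; and Ehd2 and Pacsin2, which encode proteins that bind the caveolar neck and curved membrane. They were taken by gene symbol from both deposited count tables, which hold 31017 genes, and all 7 passed the filter on low counts that left 13763 genes for testing. The group was chosen by gene name with earlier results of these data in view, and the record of that choice does not say which measured values entered it. The level of Cav1 in clone 1 was among those known, so in every comparison that involves a clone Cav1 is given as a description without a test, and counts of changed genes are over the other 6. Values of those 6 may also have been known, and their tests are to be read with that limit.

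The cells were 4T1, a mouse mammary carcinoma line. Control cells were pools of clones that had received control guide RNA by nucleofection. Etv4 knockout clone 1 and clone 2 were selected after nucleofection of Cas9 with guides against Etv4, which encodes an ETS transcription factor of the PEA3 group. Each of the 3 kinds of cell was grown in 2D on plastic and in 3D in collagen I droplets, with 2 polyA RNA libraries for each of the 6 groups. Each knockout genotype is represented by 1 clone, so an effect of the edit cannot be told apart from what is particular to that clone. The 3D cells alone were released with collagenase, and their counts stand in a separate table, so growth format, harvest and table cannot be told apart. The labels name a pair of collagen concentrations without tying them to libraries. They also do not say whether the libraries of a group came from separate cultures, so p-values measure the spread between these libraries only.

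Caveolin 1 and cavin 1 are both needed for caveolae in most cell types outside muscle. Caveolin 2 forms mixed oligomers with caveolin 1 and depends on it to leave the Golgi. Cavin 2 and cavin 3 join cavin 1 in the coat and tune its shape and its signalling, EHD2 is an ATPase that holds caveolae at the cell surface, and pacsin 2 is an F-BAR protein that bends membrane. Caveolae flatten when the membrane is stretched and are usually sparse in epithelial cells compared with fat, endothelial and muscle cells.

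Cav1 (ENSMUSG00000007655.16, chr6:17306335-17341452, plus strand, mm10) and Cav2 (chr6:17281185-17289115, plus strand) are neighbours, with 17.22 kb between the end of Cav2 and the start of Cav1. Cavin2 lies at chr1:51289126-51302960 on the plus strand. The 250 bases before the start of these 3 genes are shown because the neighbouring pair parted in clone 1 and Cavin2 moved furthest among the tested members, in opposite directions in the clones. They were read from RefSeq on GRCm38.p6, 5′ to 3′ on the strand of the gene, and 6 of the 7 genes were matched (Cavin3 was not). Capitals mark matches to the motifs named after the sequences.
Cav1, chr6:17306085-17306334: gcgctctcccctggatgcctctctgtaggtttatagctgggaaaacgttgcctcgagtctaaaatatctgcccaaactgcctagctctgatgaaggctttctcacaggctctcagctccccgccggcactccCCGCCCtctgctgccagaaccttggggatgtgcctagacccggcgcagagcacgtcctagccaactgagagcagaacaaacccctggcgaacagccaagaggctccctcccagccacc
Cav2, chr6:17280935-17281184: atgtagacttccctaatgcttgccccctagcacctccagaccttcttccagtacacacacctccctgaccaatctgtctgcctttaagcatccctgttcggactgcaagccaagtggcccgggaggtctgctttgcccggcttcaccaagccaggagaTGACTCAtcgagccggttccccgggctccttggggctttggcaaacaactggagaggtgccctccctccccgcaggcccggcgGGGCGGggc
Cavin2, chr1:51288876-51289125: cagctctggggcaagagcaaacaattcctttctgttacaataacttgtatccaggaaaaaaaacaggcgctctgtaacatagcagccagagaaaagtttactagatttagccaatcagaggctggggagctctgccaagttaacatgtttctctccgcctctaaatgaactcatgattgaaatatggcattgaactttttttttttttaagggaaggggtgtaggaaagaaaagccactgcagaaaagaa

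Both strands were searched for an ETS core with flank (CCGGAA), a PEA3 site (AGGAAG), a TEAD site (GGAATG), an AP-1 site (TGANTCA), a GC box (GGGCGG) and the CArG box. Among 32851 RefSeq windows of this length, 12% held the ETS letters, 29.5% the PEA3 letters, 12.6% the TEAD letters, 6.75% the AP-1 letters, 32.7% the GC box and 1.47% the CArG box. The ETS and TEAD letters can overlap each other. The printed Cav1 window held a GC box on the minus strand 118 bases before the start. RefSeq lists a second Cav1 start, whose window (chr6:17307390-17307639) is not printed and held none of the searched letters. The Cav2 window held an AP-1 match 92 bases before its start and a GC box at 9 bases. No searched letters were found in the Cavin2 window, which had a GC content of 40.4% and 2 CpG pairs against medians of 52.4% and 6 over all windows. Neither the ETS nor the PEA3 letters were found in the windows of the 6 matched genes, which says only that those letters are not in these windows.

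Total counts lay between 12277023 and 18702650 in the 2D libraries and between 26525130 and 33210413 in the 3D libraries. Etv4 mRNA, the targeted transcript, had 78.1 and 76.0 CPM (counts scaled to a common library size) in the control 2D libraries, 49.8 and 49.2 for clone 1, and 49.3 and 46.0 for clone 2. The 3D pairs were 94.7 and 99.4 for control, 69.9 and 69.1 for clone 1, and 86.6 and 91.5 for clone 2. Counts over the whole gene do not show whether the reading frame was cut, so the labels were not checked at the level of protein. The epithelial markers summed to between 2856 and 4803 CPM in every library, with Krt5 at 0. The adipocyte list summed to at most 0.228 CPM, the smooth muscle list to at most 1.56, the leukocyte list to at most 11.6, the endothelial list to at most 14.9 and the fibroblast list to at most 23.8. These are the types richest in caveolae or likely to contaminate a culture, and their part in the results was not tested. In bulk RNA, fewer cells that express a gene and less RNA per cell cannot be told apart.

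**Figure D1:**
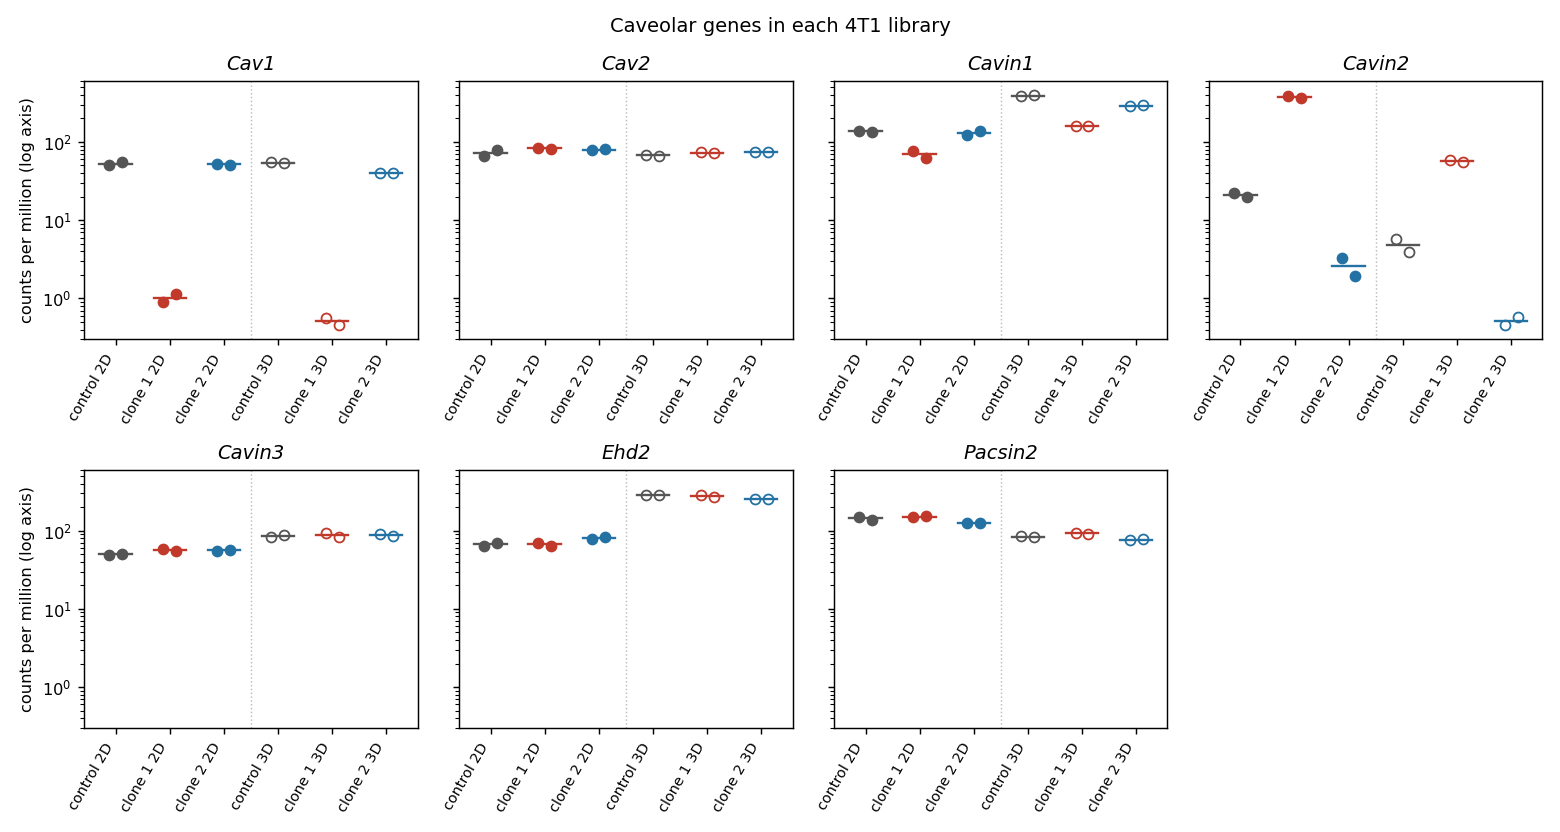
CPM (log axis) of the 7 caveolar genes in the 12 libraries, with 1 point per library and a line at the mean of each group; filled points are 2D and open points 3D. Cav1 is near the floor of the plot in the 4 clone 1 libraries alone, and Cavin2 is highest in clone 1 and lowest in clone 2 in both formats.

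Cav1 was nearly lost in clone 1 and Cav2 was not. On plastic the control libraries held 49.98 and 56.0 CPM of Cav1, the clone 1 libraries 0.909 and 1.12, and the clone 2 libraries 52.9 and 50.4. In collagen, control held 54.7 and 53.7, clone 1 held 0.570 and 0.451, and clone 2 held 40.6 and 40.1. The 4 clone 1 libraries held between 13 and 15 Cav1 counts each, and none overlapped any other library. The mean in clone 1 was 1.92% of control in 2D and 0.942% in 3D. In clone 2 it was 97.5% of control in 2D, where the ranges overlapped, and 74.5% in 3D, where they did not. In control cells, the comparison that leaves the clones out, Cav1 differed by 0.03 ± 0.08 (log2, SE) between 3D and 2D (edgeR quasi-likelihood test, adjusted p = 0.725).

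Cav2 stayed between 65.9 and 84.5 CPM in all 12 libraries, the narrowest range of the 7 genes (1.28-fold from lowest to highest). The 2D pairs were 65.9 and 78.2 CPM for control, 84.5 and 80.4 for clone 1, and 78.2 and 81.6 for clone 2. In the same order, the 3D pairs were 67.9 and 66.5, 73.5 and 72.7, and 74.1 and 75.4. On plastic its log2 difference between clone 1 and control was 0.19 ± 0.07 (adjusted p = 0.033). That call was lost when control 2D replicate 1 was left out (0.08, adjusted p = 0.481), and also without clone 1 2D replicate 1 (adjusted p = 0.183) or clone 2 3D replicate 1 (adjusted p = 0.0509) and when the 2D libraries were fitted alone (0.19, adjusted p = 0.104). The other differences of Cav2 from control did not pass the test: 0.15 ± 0.07 for clone 2 in 2D (adjusted p = 0.115), 0.12 ± 0.07 for clone 1 in 3D (adjusted p = 0.139) and 0.15 ± 0.07 for clone 2 in 3D (adjusted p = 0.0819). Leaving out control 2D replicate 2 brought clone 2 in 2D past the threshold (0.28, adjusted p = 0.0064), and leaving out either control 2D library brought clone 2 in 3D past it (adjusted p = 0.0351 and 0.0356), as did a fit of the 3D libraries alone (0.15, adjusted p = 0.0055). Cav2 in clone 1 in 3D passed with chromosomes centred (0.21, adjusted p = 0.0124) and with the 3D libraries alone (0.11, adjusted p = 0.0317). Under that centring, Cav2 in clone 2 differed from control by only -0.03 on plastic and 0.001 in collagen, and neither passed. The adjusted p values of this pair were 0.794 and 0.997. Per kilobase of exon, Cav1 made up 41.6% ± 0.981 (SD, n = 2) of caveolin RNA in control 2D, 1.18% ± 0.216 in clone 1 and 38.5% ± 1.54 in clone 2. In 3D the shares were 43.8% ± 0.0142, 0.671% ± 0.105 and 34.3% ± 0.508. The muscle caveolin, Cav3, had 0 counts in all 12 libraries.

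No tested neighbour on chromosome 6 differed from control in clone 1 by as much as Cav1. As the level of Cav1 in clone 1 was known when the genes were chosen, this is a description. Of the 4 protein-coding genes on each side of the Cav1 and Cav2 pair, 5 were tested. Met, the HGF receptor gene 157 kb after the Cav1 start, differed in clone 1 by -0.01 ± 0.06 in 2D, with an adjusted p of 0.911, and by 0.07 ± 0.06 in 3D, with an adjusted p of 0.395. Capza2, an actin capping subunit, differed by -0.03 ± 0.06 (adjusted p = 0.743) and 0.08 ± 0.06 (adjusted p = 0.294). On the other side, Tes, which encodes the focal adhesion protein testin, was lower in clone 1 by 0.29 and 0.48 on the log2 scale and higher in clone 2 by 0.52 and 0.24, all past the threshold. Mdfic was lower in clone 1 by 0.94 in 2D and 0.67 in 3D, and St7 was higher by 0.29 ± 0.11 in 3D (adjusted p = 0.0377). Tested chromosome 6 genes with a nonzero log2 difference from control had a median of -0.10 in clone 1 in 2D and -0.09 in 3D. In clone 2 the medians were 0.18 and 0.15.

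**Figure D2:**
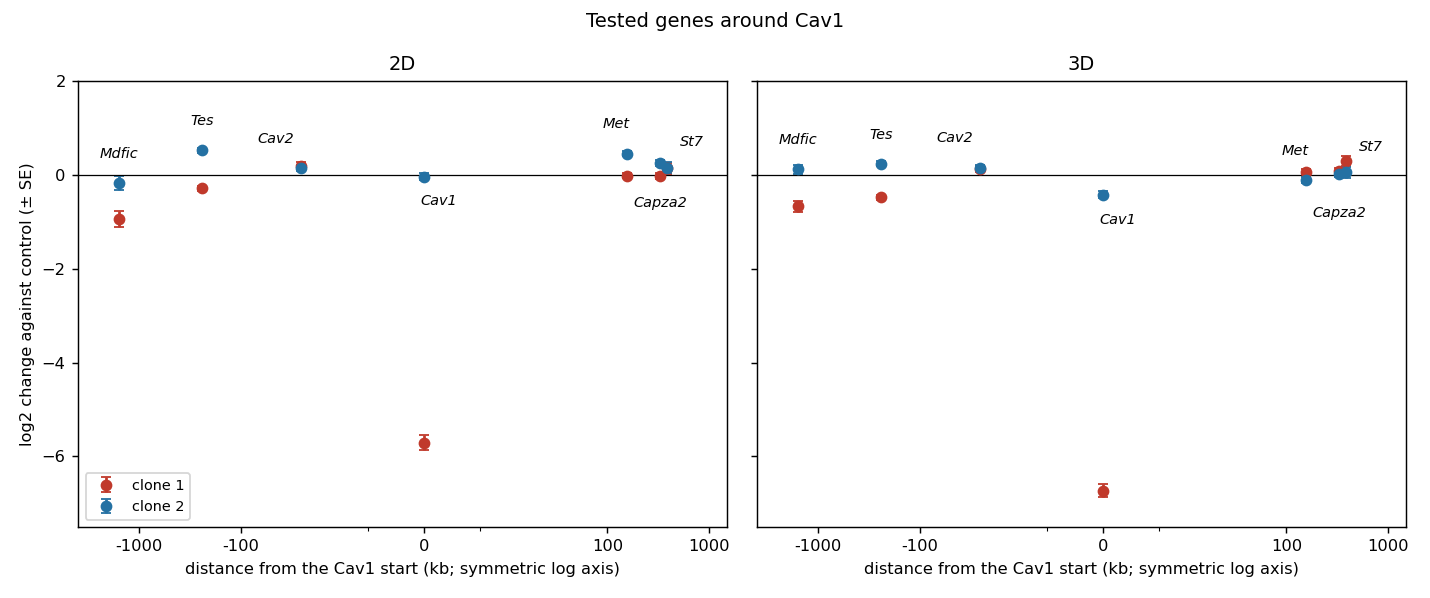
Log2 difference from control (± SE) of Cav1, Cav2 and the 5 tested genes nearest to the pair, against distance from the Cav1 start in kb (symmetric log axis), in 2D and 3D. The clone 1 point of Cav1 lies at -5.71 in 2D and -6.73 in 3D, while the other clone 1 points lie between -0.94 and 0.29.

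Cavin2 moved in opposite directions in the clones. On plastic the control libraries held 22.4 and 19.8 CPM, those of clone 1 387 and 362, and those of clone 2 3.25 and 1.92. In collagen, control held 5.69 and 3.94, clone 1 held 58.3 and 54.9, and clone 2 held 0.455 and 0.584. The 3 kinds of cell did not overlap within either format, although clone 2 rests on 60 and 27 counts in 2D and 13 and 16 in 3D. Cavin2 rose 17.8-fold in clone 1 in 2D (log2 4.15 ± 0.09, adjusted p = 1.6e-21) and 11.8-fold in collagen (3.55 ± 0.11, adjusted p = 6.0e-19). In clone 2 it fell to 12.3% of control in 2D (log2 -2.98 ± 0.17, adjusted p = 1.7e-12) and 10.8% in collagen (-3.20 ± 0.26, adjusted p = 4.2e-10). The control libraries are common to both comparisons. The direct difference of clone 2 from clone 1 was -7.13 ± 0.13 on plastic (adjusted p = 2.9e-24) and -6.76 ± 0.17 in collagen (adjusted p = 1.5e-21). The ± 0.17 is smaller than the ± 0.26 of clone 2 against control, although both rest on the same 13 and 16 counts. It may therefore overstate the precision.

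The median log2 difference from control over the tested genes of chromosome 1, where Cavin2 lies, was -0.12 in 2D and -0.06 in 3D in clone 1, and -0.32 and -0.53 in clone 2. With each chromosome centred on its median, Cavin2 in clone 2 remained lower by 2.66 on plastic (adjusted p = 2.5e-11) and by 2.67 in collagen (adjusted p = 3.8e-08).

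Cavin1, the cavin that caveolae require, was lower in clone 1 in both formats. Its 2D levels were 139.9 and 135.2 CPM for control, 76.9 and 62.4 for clone 1, and 121.9 and 136.0 for clone 2. The 3D levels were 382 and 399.6 for control, 159.5 and 158.7 for clone 1, and 285 and 296 for clone 2. On plastic, control and clone 2 overlapped and clone 1 lay below both, whereas in collagen all 3 stood apart. Cavin1 fell in clone 1 to 50.6% of control in 2D (log2 -0.98 ± 0.07, adjusted p = 9.2e-11) and 40.7% in collagen (-1.30 ± 0.06, adjusted p = 8.7e-15). In clone 2 it fell to 74.4% in 3D (-0.43 ± 0.06, adjusted p = 5.9e-06), and the 2D difference was -0.10 ± 0.07 (adjusted p = 0.311).

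Cavin1 (chr11:100956733-100970887, minus strand) lies 799 kb from Etv4 (chr11:101769742-101785371, minus strand), and chromosome 11 as a whole was lower in clone 1. The median over its tested genes with a nonzero difference from control was -0.41 in clone 1 in 2D and -0.43 in 3D. In clone 2 it was -0.10 and 0.02. With each chromosome centred on its median, the Cavin1 difference in clone 1 was -0.57 ± 0.07 on plastic, at an adjusted p of 1.3e-06, and -0.87 ± 0.06 in collagen, at an adjusted p of 2.8e-11. Of 38 protein-coding genes between Cavin1 and Etv4, an interval chosen after the values were seen, 34 were tested. In clone 1, 18 were lower and 1 higher in 2D and 23 lower and 1 higher in 3D, with medians of -0.52 and -0.49. Over all genes tested, 39.8% passed in clone 1 in 2D and 45.1% in 3D. In clone 2, 6 passed in 2D, all of them lower, and 6 were lower and 3 higher in 3D, with medians of 0.01 and 0.13. The shares over all genes were 33.9% and 29.2% there. Cavin1 was not the extreme of that stretch: 9 genes in 2D and 4 in 3D lay further below control in clone 1. The part of the chromosome-wide difference in the Cavin1 result was not tested beyond this centring.

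Cavin3 (chr7:105480083-105482300, minus strand), which encodes a cavin that binds protein kinase C delta, did not pass the test in either clone. It was between 49.4 and 57.7 CPM in 2D and between 83.3 and 92.9 in 3D. The differences from control were 0.18 ± 0.07 for clone 1 (adjusted p = 0.0592) and 0.18 ± 0.07 for clone 2 (adjusted p = 0.0646) in 2D, and 0.05 ± 0.06 and 0.04 ± 0.06 in 3D. With DESeq2's size factors the 2D difference of clone 1 was 0.19 with an adjusted p of 0.0444. With chromosomes centred the 2D differences were 0.03 in clone 1 (adjusted p = 0.820) and 0.04 in clone 2 (adjusted p = 0.772). Its counts are uncertain, since 22.5% of its exon length is covered by Gm45667 on the opposite strand and the strand setting of the counting is not given in the sources used here. Neither deposited count table holds the symbol Gm45667, and how reads from the shared stretch were assigned is not known.

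Measured per kilobase of exon, Cavin1 and Cavin3 made up most cavin RNA in control cells and Cavin2 made up most of it in clone 1 on plastic. The uncertainty of the Cavin3 counts carries over to these cavin shares and sums. Cavin2 was 9.18% ± 0.628 (SD, n = 2) of the sum of the 3 cavins in control 2D, 69.8% ± 0.709 in clone 1 and 1.21% ± 0.485 in clone 2. In 3D its shares were 0.978% ± 0.279, 15.97% ± 0.00425 and 0.127% ± 0.0220. Cavin1 was 51.1% ± 0.258 in control 2D, 11.015% ± 1.01 in clone 1 and 50.96% ± 1.96 in clone 2, and 67.3% ± 0.141, 38.3% ± 1.48 and 60.4% ± 1.59 in 3D. The summed level of the 3 cavins was 75.04 ± 1.43 CPM per kb in control 2D, 175.7 ± 9.95 in clone 1 and 70.5 ± 2.72 in clone 2. The 3D sums were 161.9 ± 4.78 for control, 116 ± 4.89 for clone 1, and 134 ± 0.282 for clone 2, and the clone 1 sum was the highest of the 3 on plastic and the lowest in collagen.

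**Figure D3:**
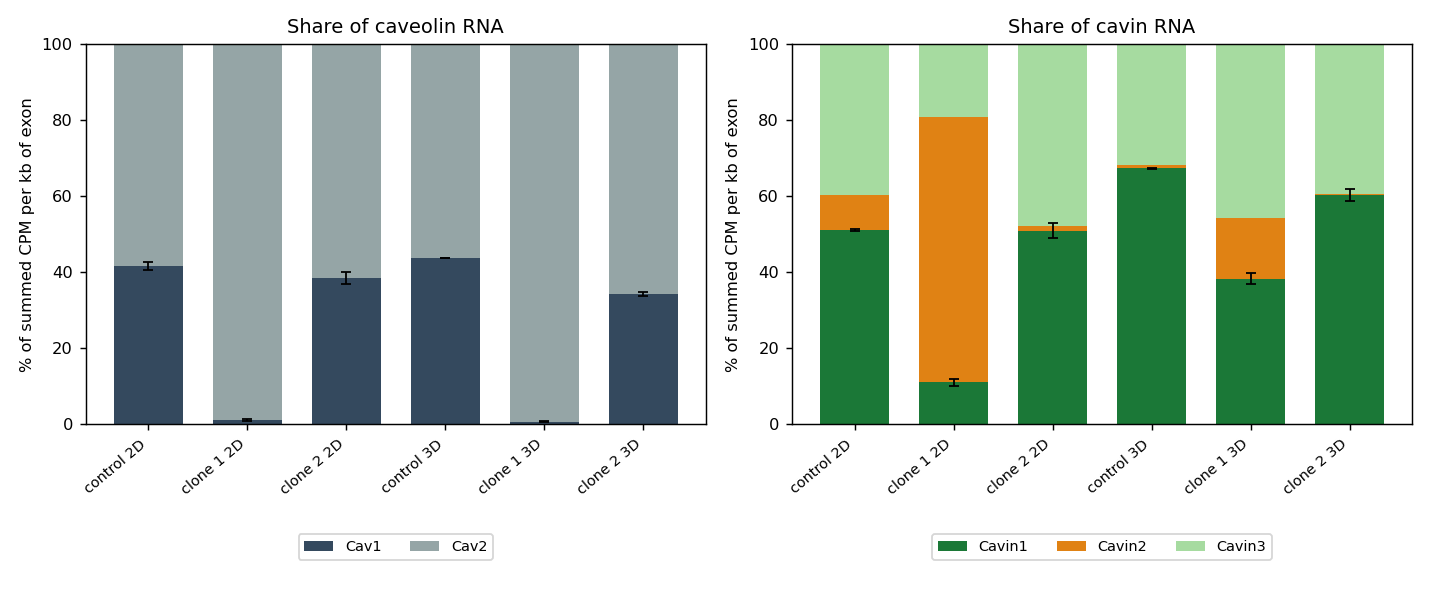
Shares (%) of summed CPM per kb of exon taken by each caveolin (left) and each cavin (right) in the 6 groups; bars are means of 2 libraries and error bars the SD of the lowest segment. Cav1 takes 1.18% of caveolin RNA in clone 1 2D against 41.6% in control 2D, and Cavin2 takes 69.8% of cavin RNA in clone 1 2D against 9.18% in control 2D.

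The caveolar neck and membrane-bending genes differed little between clones and control. Ehd2 (chr7:15946958-15967567, minus strand) had 2D levels of 64.4 and 69.5 CPM for control, 70.3 and 63.3 for clone 1, and 79.1 and 81.8 for clone 2. The 3D levels were 284 and 285 for control, 288 and 266 for clone 1, and 254 and 251 for clone 2. Clone 2 lay above control in 2D and below it in 3D, while clone 1 overlapped control in both. The difference of clone 2 was 0.26 ± 0.07 on plastic (adjusted p = 0.0028), against -0.17 ± 0.05 in collagen (adjusted p = 0.016). Centring chromosomes ended the first call (0.12, adjusted p = 0.170), as did a fit of the 2D libraries alone (0.23, adjusted p = 0.0548). Leaving out any 1 of the 2 control 3D or 2 clone 2 3D libraries ended the second call, with differences between -0.18 and -0.17 and adjusted p between 0.0916 and 0.130. In clone 1 the Ehd2 differences were -0.00 ± 0.07 (adjusted p = 1) and -0.04 ± 0.05 (adjusted p = 0.612). With chromosomes centred the second of these was -0.19 and passed (adjusted p = 0.0085).

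Pacsin2 (chr15:83375607-83464606, minus strand) was between 123.8 and 154.5 CPM in 2D and between 76.2 and 94.4 in 3D. It was lower in clone 2 in 2D by 0.20 ± 0.06 on the log2 scale (adjusted p = 0.0081) and higher in clone 1 in 3D by 0.15 ± 0.06 (adjusted p = 0.0334). The first call was lost with chromosomes centred (adjusted p = 0.116), without control 2D replicate 1 (adjusted p = 0.106) and without clone 2 2D replicate 1 (adjusted p = 0.0588). The second was lost with chromosomes centred (adjusted p = 0.243) and without either control 3D library (adjusted p = 0.0873 and 0.266), clone 1 3D replicate 1 (adjusted p = 0.241) or either clone 2 3D library (adjusted p = 0.0524 and 0.0749). The remaining differences were 0.07 ± 0.06 for clone 1 in 2D (adjusted p = 0.403) and -0.12 ± 0.06 for clone 2 in 3D (adjusted p = 0.109).

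Counted over the 6 tested members, 3 passed the test in clone 1 in 2D (Cavin2 and Cav2 higher, Cavin1 lower), where 39.8% of all genes tested did. In clone 2 in 2D, 3 passed (Ehd2 higher, Cavin2 and Pacsin2 lower) against 33.9% of all genes. In 3D, 3 passed in clone 1 (Cavin2 and Pacsin2 higher, Cavin1 lower) against 45.1%, and 3 in clone 2 (Cavin1, Cavin2 and Ehd2, all lower) against 29.2%. Between the clones, 4 of 6 differed in 2D (background 41.6%) and 4 of 6 in 3D (background 54.9%). The median log2 difference of the 6 was 0.12 in clone 1 in 2D, 0.03 in clone 2 in 2D, 0.08 in clone 1 in 3D and -0.15 in clone 2 in 3D, against 0.00, 0.02, 0.00 and 0.00 over all genes. These counts are close to the background, and the largest differences among the 7 genes were those of Cav1, Cavin2 and Cavin1.

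**Figure D4:**
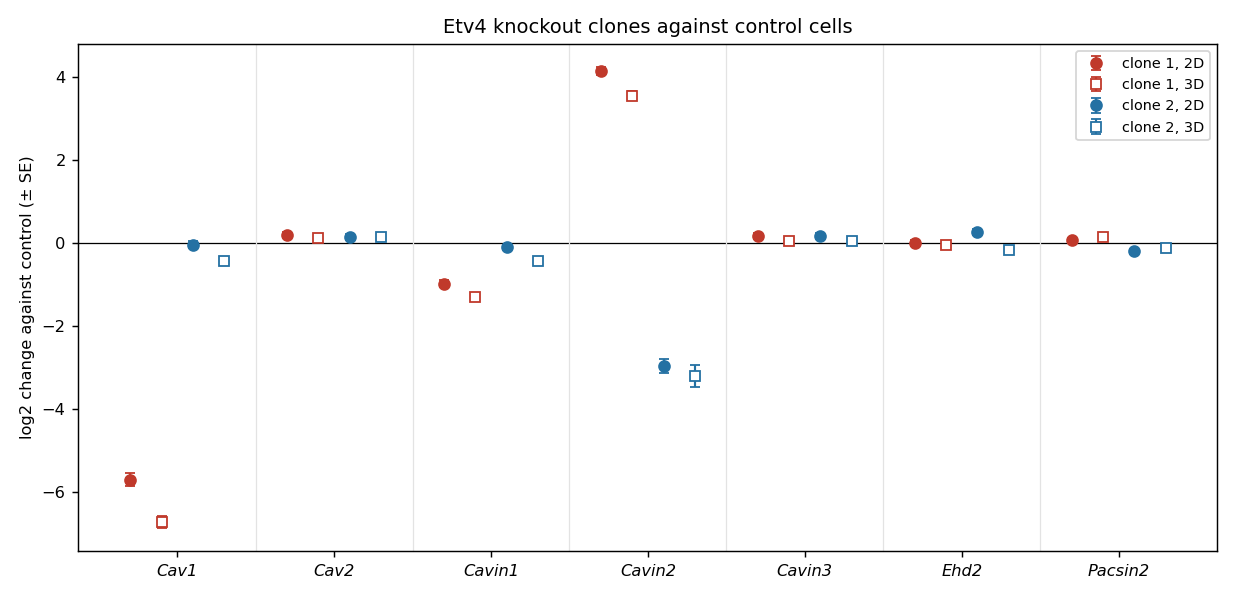
Log2 difference from control (± SE) of the 7 caveolar genes in clone 1 (red) and clone 2 (blue), in 2D (filled circles) and 3D (open squares). Cavin2 lies at 4.15 and 3.55 in clone 1 and at -2.98 and -3.20 in clone 2, and Cav2, Cavin3, Ehd2 and Pacsin2 lie within 0.26 of zero.

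Growth in collagen was compared with growth on plastic within each kind of cell. Ehd2, Cavin1 and Cavin3 were higher in 3D, Pacsin2 and Cavin2 were lower, and these directions held in control, clone 1 and clone 2. In control cells 5 of the 6 members passed the test where 77.2% of all genes did. In clone 1 it was 6 of 6 (background 75.1%) and in clone 2 it was 5 of 6 (background 79.5%), so most genes of any kind passed.

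Ehd2 rose 4.25-fold in control (log2 2.09 ± 0.06, adjusted p = 9.1e-21), 4.15-fold in clone 1 (2.05 ± 0.06, adjusted p = 1.5e-20) and 3.13-fold in clone 2 (1.65 ± 0.06, adjusted p = 4.0e-19). Its highest 2D library, at 81.8 CPM, was far below its lowest 3D library, at 251. Cavin1 rose 2.84-fold in control (1.51 ± 0.07, adjusted p = 3.6e-17), 2.29-fold in clone 1 (1.19 ± 0.07, adjusted p = 3.2e-14) and 2.25-fold in clone 2 (1.17 ± 0.07, adjusted p = 5.3e-15). Cavin3 was higher by 0.78 ± 0.07 in control (adjusted p = 7.1e-11), 0.65 ± 0.07 in clone 1 (adjusted p = 2.4e-09) and 0.65 ± 0.07 in clone 2 (adjusted p = 1.4e-09).

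Cavin2 fell in 3D to 22.9% of its 2D level in control (-2.13 ± 0.14, adjusted p = 9.1e-14), 15.1% in clone 1 (-2.73 ± 0.08, adjusted p = 6.2e-21) and 20.1% in clone 2 (-2.35 ± 0.33, adjusted p = 4.3e-07). Pacsin2 fell to 57.9% in control (-0.79 ± 0.06, adjusted p = 2.0e-12), 61.4% in clone 1 (-0.70 ± 0.06, adjusted p = 2.1e-11) and 61.2% in clone 2 (-0.71 ± 0.06, adjusted p = 1.7e-11). Cav2 was lower by 0.17 ± 0.07 in clone 1 (adjusted p = 0.0243) and differed by -0.10 ± 0.07 in control (adjusted p = 0.185) and -0.09 ± 0.07 in clone 2 (adjusted p = 0.200). The clone 1 call for Cav2 was lost under 10 of 19 alternatives, among them DESeq2 (-0.10, adjusted p = 0.245), both looser filters on low counts and leaving out any 1 of 5 libraries, and the control difference passed without control 2D replicate 1 (-0.22, adjusted p = 0.0094). Cav1, as a description, was at 50.2% of its 2D level in clone 1 and 78.2% in clone 2.

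**Figure D5:**
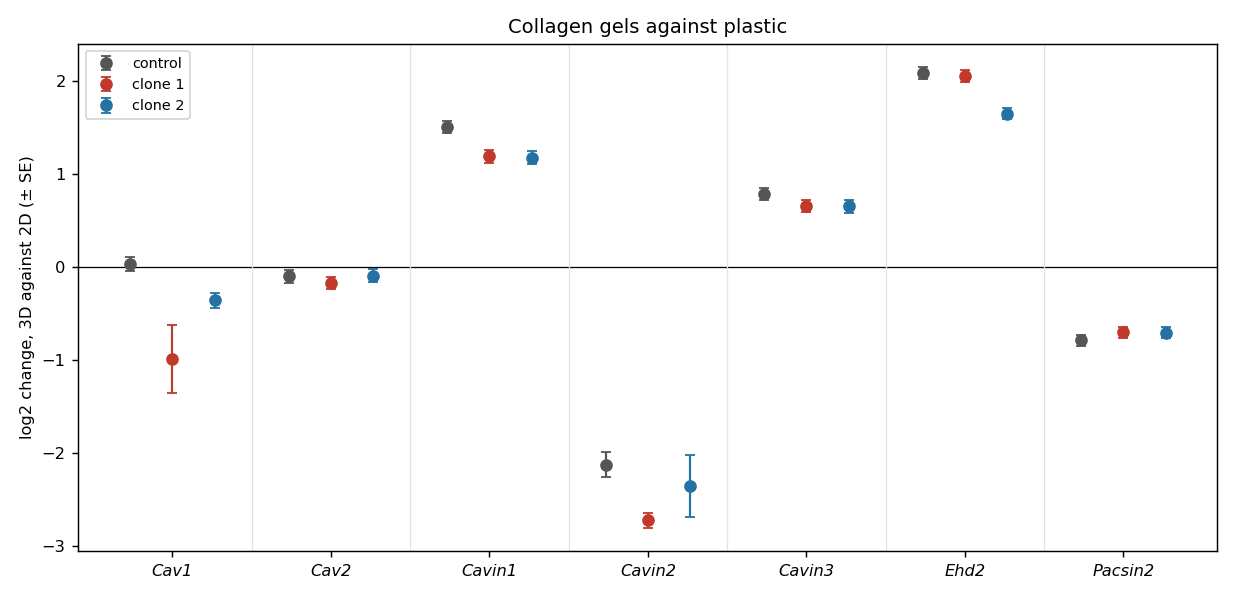
Log2 difference of 3D from 2D (± SE) of the 7 caveolar genes in control, clone 1 and clone 2. Ehd2 lies between 1.65 and 2.09 and Cavin1 between 1.17 and 1.51, while Cavin2 lies between -2.73 and -2.13 and Pacsin2 between -0.79 and -0.70.

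Marker lists of other cell types moved with format. The fibroblast list summed to between 4.11 and 7.39 CPM in the 2D libraries and between 19.9 and 23.8 in 3D, most of it Pdgfra, with Lum at 0 in every library and Dcn at no more than 1 count. The leukocyte list went from between 1.75 and 5.46 CPM to between 7.77 and 11.6. In 3D most of it was Cd68, at 6.99 to 10.3 CPM. The smooth muscle and adipocyte lists stayed below 2 CPM. The endothelial list was lower in 3D, at 3.53 to 5.86 CPM against 8.53 to 14.9, most of it Egfl7, with Emcn at 0. The epithelial list was between 3557 and 4803 CPM in 2D and between 2856 and 3428 in 3D. The part of these shifts in the members' format differences was not tested.

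The count tables of the formats also differed for genes on overlapping strands. Among tested genes with no exon covered on the opposite strand (8912 genes) the median 3D difference in control was 0.10. For genes with above 10 to 25% covered, the bin that holds Cavin3, it was 0.09 (1135 genes), and for genes with above 50% covered it was -0.71 (236 genes). The other 6 caveolar genes had 0% of their exon length covered. In addition, 5 tested genes had at least 100 counts in every 2D library and 0 in every 3D library, and 7 showed the reverse. The part of counting in the differences between formats was not tested.

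Whether a clone differed from control by the same amount in both formats was tested as an interaction, the 3D difference minus the 2D difference on the log2 scale. Of the 6 members, 2 passed for clone 1 (background 7.02%) and 2 for clone 2 (background 22.2%), all of them negative. For clone 1 they were Cavin2 (-0.60 ± 0.16, adjusted p = 0.0233) and Cavin1 (-0.32 ± 0.10, adjusted p = 0.0462). For clone 2 they were Ehd2 (-0.44 ± 0.09, adjusted p = 5.5e-04) and Cavin1 (-0.33 ± 0.09, adjusted p = 0.0113). The Ehd2 call was kept under all 19 alternatives that could be run. The Cavin1 call in clone 1 was lost under 14 of 19 alternatives. In 13 of these the difference lay between -0.37 and -0.28 (adjusted p between 0.0583 and 0.180), and without clone 1 2D replicate 1 it was -0.16 (adjusted p = 0.389). The Cavin2 call in clone 1 was lost without control 3D replicate 1 (-0.33, adjusted p = 0.424), control 2D replicate 2 (-0.52, adjusted p = 0.0655), clone 1 2D replicate 1 (-0.55, adjusted p = 0.0641) or clone 1 3D replicate 2 (-0.52, adjusted p = 0.115). The Cavin1 call in clone 2 was lost without clone 2 2D replicate 2, control 3D replicate 2 or clone 2 3D replicate 1, with adjusted p between 0.0659 and 0.0822.

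The order of the groups differed from gene to gene. Cav1 ran from control 3D (54.2 CPM) through control 2D (52.98), clone 2 2D (51.6) and clone 2 3D (40.4) to clone 1 2D (1.02) and clone 1 3D (0.510), with overlapping ranges among the first 3. Cavin2 ran from clone 1 2D (374.6) through clone 1 3D (56.6), control 2D (21.1), control 3D (4.81) and clone 2 2D (2.59) to clone 2 3D (0.519), with no neighbours overlapping. Cavin1 ran from control 3D (391) through clone 2 3D (291), clone 1 3D (159.1), control 2D (137.5) and clone 2 2D (129) to clone 1 2D (69.6), and only control 2D and clone 2 2D overlapped. Across all libraries Cavin2 spanned 851-fold and Cav1 124-fold from lowest to highest, against 6.41-fold for Cavin1, 4.55-fold for Ehd2, 2.03-fold for Pacsin2 and 1.88-fold for Cavin3.

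Genes with the most similar pattern were sought over the 6 group means of log2(CPM + 1) among 9761 genes with a mean of at least 5 CPM. The points share libraries, and with 6 points high correlations arise easily among so many genes, so these are descriptions. For Cav1 they were Slc38a10 (r = 0.996), Dhx8 (0.990), Zfp518b (0.989), Mrpl10 (0.989) and Lcp1 (0.988). Slc38a10, Dhx8 and Mrpl10 lie on chromosome 11, and their differences in clone 1 in 3D were -0.59, -0.56 and -0.68, far smaller than that of Cav1. Zfp518b, on chromosome 5, was nearly lost as Cav1 was: on plastic it had 287 and 344 counts in control and 0 and 3 in clone 1, and in collagen 601 and 582 against 0 in each clone 1 library. For Cavin1 they were Anapc13 (0.996), Cltc, the clathrin heavy chain gene (0.993), Kdm5b (0.993), Arl4c (0.992) and Lsm12 (0.991). Ehd2 was matched most closely by Khdrbs1 and Pcbp1, which encode RNA-binding proteins, and by Palld, Gm26825 and Zfp36. Palld encodes the actin-bundling protein palladin. The r values of these genes with Ehd2 ran from 0.99895 (Zfp36) to 0.9999 (Khdrbs1). Among the members themselves, r was 0.985 between Ehd2 and Cavin3 and -0.960 between Ehd2 and Pacsin2, and -0.818 between Cav1 and Cavin2.

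Most tested close relatives of the caveolar genes rose in clone 1, and some of them in clone 2 on plastic. Of 7 listed paralogs, Cav3, Ehd3 and Pacsin1 did not pass the filter and 4 were tested. Ehd1 and Ehd4, which encode recycling endosome ATPases related to EHD2, and Pacsin3 rose in clone 1 in both formats (3 of 4), and Cavin4 did not pass the test. In clone 1, 39.8% of all genes tested passed in 2D and 45.1% in 3D, and 4 genes are few to set against those shares. On plastic Ehd1 had 191 and 167 CPM for control and 263 and 253 for clone 1, and Ehd4 had 160.5 and 158.9 against 241 and 220.4. In 3D the differences were 0.38 ± 0.06 for Ehd1 (adjusted p = 3.1e-06), 0.51 ± 0.06 for Ehd4 (adjusted p = 2.4e-08) and 0.42 ± 0.08 for Pacsin3 (adjusted p = 8.7e-05). In clone 2 in 2D, 2 of 4 passed by edgeR's adjusted p (background 33.9%), both higher: Ehd1 by 0.28 (adjusted p = 5.2e-04) and Pacsin3 by 0.37 (adjusted p = 0.0041). In clone 2 in 3D, 0 of 4 passed by edgeR's adjusted p (background 29.2%), 1 was under an unadjusted p of 0.05 (Ehd1, 0.13 ± 0.06), and 0 passed by DESeq2. The list median was 0.53 in 2D and 0.47 in 3D in clone 1, against 0.00 over all genes, and 0.31 and 0.07 in clone 2, against 0.02 and 0.00.

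Flotillins and other raft scaffolds, which organise membrane domains without caveolae, were mixed. Of 9 tested, 1 rose and 3 fell in clone 1 in 2D (list median 0.15; 39.8% of all genes passed) and 3 rose and 3 fell in 3D (-0.16; 45.1%). In clone 2, 2 fell in 2D (-0.13; 33.9%), and 1 rose and 4 fell in 3D (-0.11; 29.2%). Flot1, encoding flotillin 1, rose in clone 1 by 0.99 in 2D and 0.63 ± 0.08 in 3D (adjusted p = 2.1e-07), and fell in clone 2 by 0.30 in 2D and by 0.64 ± 0.08 in 3D (adjusted p = 6.6e-07). In 3D it had 44.3 and 40.4 CPM for control, 65.5 and 65.3 for clone 1, and 27.9 and 26.3 for clone 2, so in each clone its direction was that of Cavin2. With format it was not: Flot1 was higher in 3D than in 2D in control by 1.07, where Cavin2 was lower. The prohibitin genes Phb and Phb2, whose products sit mainly in mitochondria, were lower in 3D than in 2D in control by 1.55 and 1.36.

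Next come the kinases that phosphorylate caveolin 1 and the proteins that tie caveolae to actin. In clone 1 in 2D 8 of 13 passed, all of them higher (median 0.24), where 39.8% of all genes passed. In 3D 5 rose and 1 fell (0.20), a share close to the 45.1% of all genes. In clone 2, 4 passed in 2D, all higher (background 33.9%), and 2 rose and 2 fell in 3D (background 29.2%). Src, whose product phosphorylates caveolin 1, was higher in clone 1 by 0.22 in 2D and 0.20 in 3D, and Yes1 by 0.26 and 0.40. Rhoa, a regulator of stress fibres, rose by 1.00 ± 0.06 in control in 3D against 2D (adjusted p = 6.7e-15). Ilk, encoding integrin-linked kinase, was at 980 to 1822 counts in 2D and 10 to 46 in 3D, but 76.75% of its exon length is covered by Taf10 on the opposite strand, so this difference is uncertain.

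Receptors and cargo linked to caveolae gave 8 higher and 2 lower of 18 in clone 1 in 2D, and 7 in 3D that were all higher (medians 0.14 and 0.07), against 39.8% and 45.1% of all genes passing. In clone 2 they gave 5 and 2 in 2D and 2 and 4 in 3D (0.01 and 0.00), against 33.9% and 29.2%. Ror1, an orphan receptor tyrosine kinase reported to scaffold caveolin 1 and cavin 1, was at 3.08 and 2.09 CPM in control 2D and 10.7 and 12.3 in clone 1. Its 3D level was also higher in clone 1, by 1.60 ± 0.23 (adjusted p = 2.3e-06). Cd44, the hyaluronan receptor, rose in clone 1 in 3D by 0.43 ± 0.06 (adjusted p = 1.9e-06), as did Tgfbr2 by 0.44 ± 0.05 (adjusted p = 3.7e-08). In control cells Cd44, Igf1r and Insr were higher in 3D than in 2D by 1.88, 1.82 and 1.63.

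Clathrin endocytosis, the other main coat pathway, had 7 higher and 4 lower of 23 in clone 1 in 2D and 8 and 9 in 3D (medians 0.01 and -0.06), where 39.8% and 45.1% of all genes passed. In clone 2 the counts were 6 and 2 in 2D and 4 and 6 in 3D (0.07 and -0.01), where 33.9% and 29.2% did. Dab2, a cargo adaptor, moved as Cavin2 did: in 3D it had 37.0 and 39.2 CPM for control, 101 and 95 for clone 1, and 11.5 and 13.0 for clone 2. It rose in clone 1 by 1.36 ± 0.11 (adjusted p = 8.2e-11) and fell in clone 2 by 1.64 ± 0.12 (adjusted p = 1.0e-10). Unlike Cavin2, Dab2 was higher in 3D than in 2D, by 2.40 ± 0.15 in control.

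Genes that supply cholesterol and sphingolipid to the plasma membrane gave 7 higher and 1 lower of 15 in clone 1 in 2D and 8 and 3 in 3D (medians 0.20 and 0.17; 39.8% and 45.1% of all genes passed). In clone 2 they gave 3 and 2 in 2D and 4 and 3 in 3D (0.00 and 0.08; 33.9% and 29.2%). Npc2, encoding a lysosomal cholesterol carrier, rose in both clones in 3D, by 0.31 in clone 1 and 0.35 in clone 2. Gramd1b, encoding a sterol transporter at contacts with the endoplasmic reticulum, fell in 3D by 2.14 ± 0.28 in clone 1 and by 3.78 ± 0.35 in clone 2, where it had 10 and 17 counts. Abcg1, a sterol exporter gene, had 10 and 8 counts in control 3D, 89 and 121 in clone 1 and 1 in each library of clone 2. In control cells 10 of 15 were higher in 3D than in 2D and 2 lower, a share close to the 77.2% of all genes that passed, and the smallest p was that of Stard4 at 1.44 ± 0.08 (adjusted p = 5.8e-15). Their median there was 0.74, against 0.10 over all genes.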

How the data were processed

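RNA-seq of polyA RNA from 4T1 cells was deposited as 2 tables of raw counts per gene symbol, 1 for 2D and 1 for 3D, and these counts were used as deposited. Per the submitters' processing notes, the tools included FastQC 0.11.9, STAR 2.7.9a, featureCounts and R 4.1.1 with the mm10 build; strand and multimapping settings are not given in the sources used here. Both tables were joined by symbol (31017 genes, 12 libraries, 12277023 to 33210413 counts each). Genes were filtered with edgeR's filterByExpr (13763 kept), scaled by TMM and tested with edgeR 4.0.16 (quasi-likelihood, group means over all 12 libraries, 6 residual degrees of freedom, R 4.3.3), with Benjamini-Hochberg adjustment over all genes tested and a threshold of 0.05. CPM values use TMM-scaled library sizes, and exon lengths come from GENCODE for mm10. On data simulated for clone 1 against control in 3D, run on 13116 genes, 74.2% of 97 genes changed 1.5-fold and 82.4% of 91 changed 2-fold were recovered, and 5 of 12928 unchanged genes were called. The simulation gave all groups the same mean for each gene, apart from the changed genes. In the real comparison 45.1% of genes passed, so these rates may not hold there.

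The members and gene lists were chosen with earlier results of these data known. Named genes are Etv4, the members, tested paralogs, up to 4 genes of each other list with the smallest p for clone 1 versus control in collagen and for collagen versus plastic in control, the 4 protein-coding genes on each side of the Cav1 and Cav2 pair, and the 5 genes most like Cav1, Cavin1 and Ehd2. Alternatives were DESeq2 1.42.0, its size factors in edgeR, other filters on low counts, libraries of 1 format alone, fits without Gm26917 and Gm42418, chromosomes centred on their medians, a replicate block and leaving out each library. Intervals and standard errors cover these libraries only. Each standard error printed after ± for a log2 difference was derived from its edgeR test. It is the size of the difference divided by the square root of the test's F statistic. For very large differences that rest on few counts, such errors may be too small.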

Additional observations from a re-analysis of the deposited data

Results flagged for a closer look

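Each of these was singled out because a clone's difference from control was not the same in 3D as in 2D by the interaction test of edgeR. The Cavin1 interaction was -0.319 on the log2 scale in clone 1 and -0.332 in clone 2, both measured against the same control libraries. The Cavin2 interaction in clone 1 was -0.599, with the clone above control in both formats. The Ehd2 interaction in clone 2 was -0.438, with the clone above control in 2D and below it in 3D. Of 19 alternatives, 14 ended the Cavin1 call in clone 1, 3 that in clone 2 and 4 the Cavin2 call. None ended the Ehd2 call. Over all genes tested, 7.02% passed the interaction test for clone 1 and 22.2% for clone 2.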

How the results depend on the processing

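The 67 tested results on the members were repeated 1302 times under the alternatives. Of these repeats, 1232 stayed on the same side of the threshold, 58 lost the call, 11 gained it and 1 reversed. Results without a call could change sign and still count among the 1232. An example is Cavin3 in clone 1 against control in 3D, at 0.05 and, with chromosomes centred, at -0.10. For 46 of the 67 results no alternative changed the call, among them Cavin2 and Cavin1 in every comparison with control. The reversed result was Cav2 in clone 2 against clone 1 in 3D, 0.03 without a call and -0.21 (adjusted p = 0.0086) with chromosomes centred. With chromosomes centred the members called in clone 2 against control in 2D were 1 in place of 3, and with 3D libraries alone they were 5 in place of 3 for clone 2 in 3D. For the interaction of clone 1 the count was 1 in place of 2 with DESeq2, with its size factors in edgeR, with at least 10 counts over all libraries, without Gm26917 and Gm42418, with chromosomes centred and with the replicate block. Leaving out 1 library at a time gave between 0 and 2 for that interaction and between 1 and 2 for that of clone 2. The other counts ranged over 2 to 3 (clone 1 in 2D and in 3D), 2 to 4 (clone 2 in 2D and in 3D), 3 to 4 (between clones in either format) and 5 to 6 (3D against 2D). The cause of these changes was not tested.

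Over all genes, clone 2 against control in 3D gave 4023 calls, 6440 with 3D libraries alone, and 2590, 2429, 2436 and 2461 without control 3D replicate 1, control 3D replicate 2, clone 2 3D replicate 1 and clone 2 3D replicate 2. The clone 1 interaction gave 966 calls and 504, 434, 543 and 538 without control 3D replicate 1 or 2 or clone 1 3D replicate 1 or 2. The clone 2 interaction gave 3059, and 1968 without control 3D replicate 2 and 1884 without clone 2 3D replicate 1. Without Gm26917 and Gm42418 the clone 1 interaction split moved from 492 higher and 474 lower to 694 and 371, and that of clone 2 from 1022 and 2037 to 1231 and 1577. Without clone 1 3D replicate 2 the first was 342 and 196. Looser filters raised the median 3D difference of all genes by 0.13 to 0.22. Whether same-numbered replicates shared more than a number was not established. Their deviations correlated between -0.068 and 0.072 over groups. The replicate block ended the Cavin1 interaction call in clone 1 (-0.32, adjusted p = 0.0625) and no other member's call. Cav1 in clone 1 rests on 13 to 15 counts a library and Cavin2 in clone 2 in 3D on 13 and 16, which limits how precisely their folds are known.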
